A study of Mus musculus with 5 samples.

Results

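The astrocyte and radial glia genes of the dentate gyrus (DG) described here were 10 genes named by symbol, Gfap, Aqp4, Aldh1l1, Slc1a2, Slc1a3, Gja1, Gjb6, Sox2, Hopx and Fabp7. All 10 were found among the 23420 gene symbols measured. They were read in 5 RNA-Seq libraries of wild-type CD1 mice, an outbred strain, with 1 library per group, whose age is 4 months in the sample labels and 3 months in the study's methods. The LD library held pooled RNA of 8 male mice kept alone for 4 weeks with a running disk that was locked. The RUN library held 8 mice kept alone with a disk free to turn. The L-RUN and H-RUN libraries held the 4 RUN mice with the shortest and the 4 with the longest running distances, so that the 3 running libraries share animals. The CE library held 8 mice housed socially with a locked disk and tunnels that were moved daily, so social housing and tunnels cannot be told apart. All groups had nesting material, and the whole DG was microdissected, so each library mixes all its cell types.

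Astrocytes clear glutamate and potassium from synapses, carry water at their endfeet on blood vessels, and are joined into networks by gap junctions. In the subgranular zone of the adult DG, radial glia-like stem cells share many astrocyte genes and give rise to new granule neurons. Gfap, Sox2, Hopx and Fabp7 are used to mark these stem cells, although mature astrocytes express Gfap and Sox2 as well. Bulk tissue does not show which cells made any of these transcripts, Hopx and Fabp7 included.

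Values are regularized log values, on the log2 scale, in which the authors had shrunk each gene towards its mean over the 5 libraries. Read counts were not used here, and the depth of the libraries is unknown. The spread between mice cannot be measured from 1 pooled library per group, so that no test was made. The RUN library was instead set against the mixture of L-RUN and H-RUN, which held the same RNA. This gave a technical SD of a difference between 2 libraries, which lay between 0.022 and 0.040 for the 10 genes. Since RNA was pooled after extraction, this SD leaves out differences between mice, in dissection and in RNA extraction. Following the cut-off of the study, a gene was called higher or lower at a difference of at least 0.3, which is 1.23-fold.

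The 10 genes were expressed well above the minimum mean value of 5 used to define the 13550 expressed genes. By mean value, Slc1a2 ranked 8 among all expressed genes, Slc1a3 ranked 217, Gfap 445, Gja1 1143 and Aqp4 1470. Fabp7, Hopx, Gjb6, Sox2 and Aldh1l1 ranked between 3838 and 6062. Levels of different genes were compared after subtracting the log2 of the longest transcript in kb. On this per-length scale, the mean level was 12.37 for Slc1a2, 11.83 for Gfap, 11.69 for Slc1a3, 11.01 for Fabp7, 10.41 for Gja1 and 10.32 for Hopx. It was 9.76 for Aqp4, 9.18 for Gjb6, 9.15 for Sox2 and 7.87 for Aldh1l1. Gfap and Slc1a3, Gja1 and Hopx, and Gjb6 and Sox2 were closer to each other than the range of at least 1 of the pair over the 5 libraries. The dissected tissue thus carried each of these defining transcripts in every library.

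**Figure D1:**
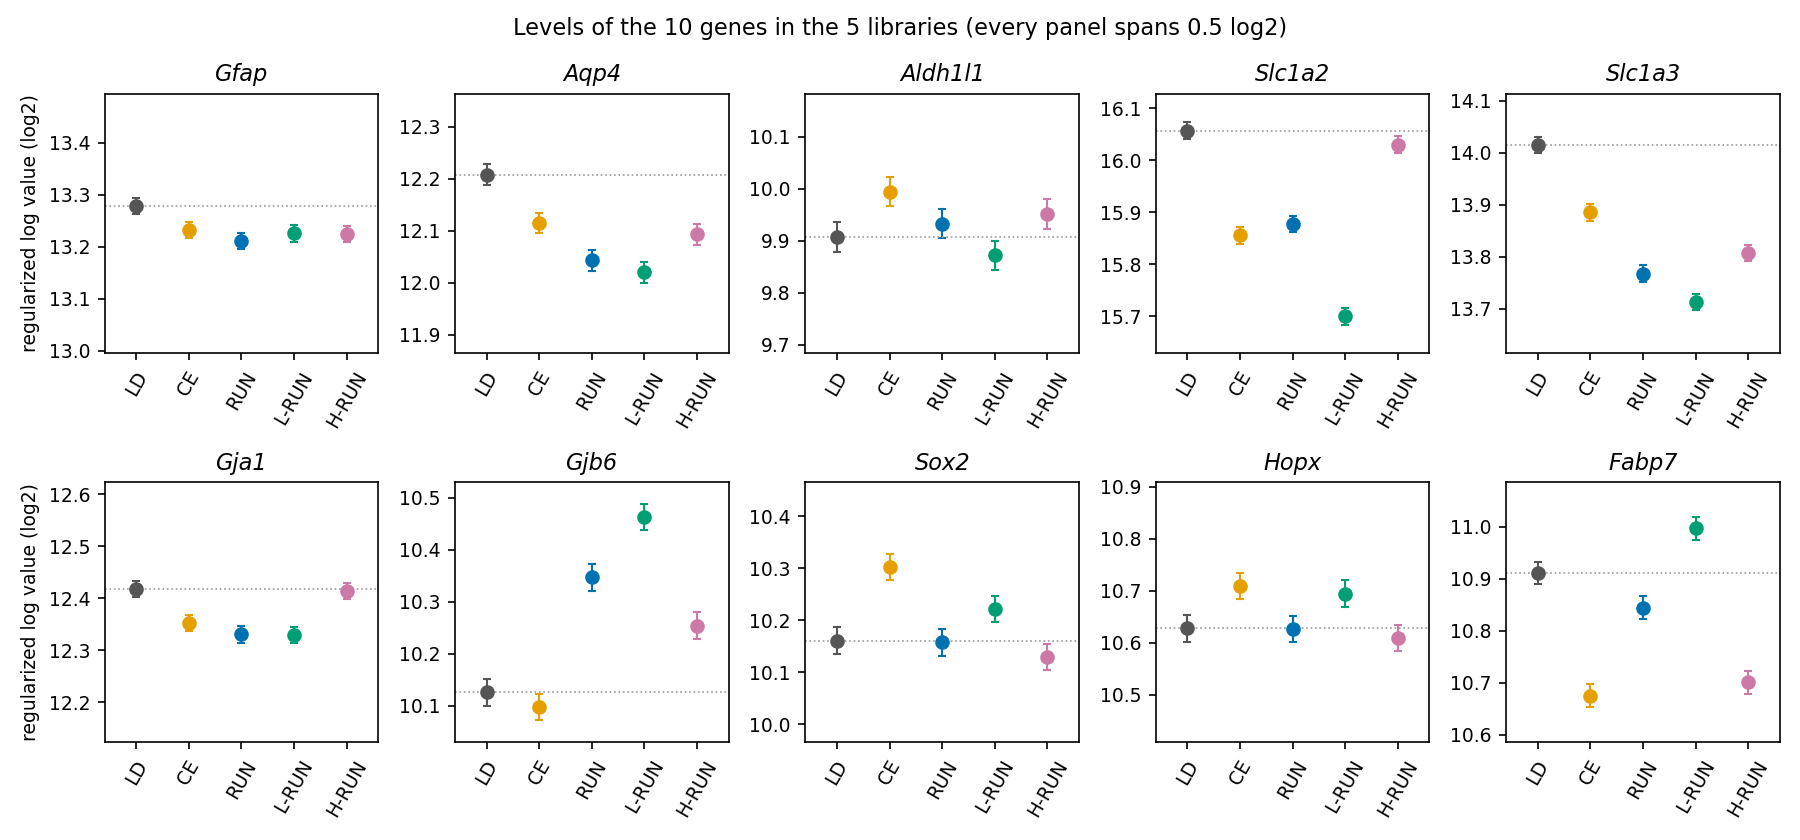
Regularized log values (log2, y axis) of the 10 genes in the 5 libraries (x axis); points are single libraries, bars are the technical SD of 1 library, and the dotted line is the LD value. Slc1a2, Slc1a3, Gjb6 and Fabp7 span more than 0.3 between their lowest and highest library, and Gfap spans 0.07.

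Against LD, 0 of the 10 genes passed the cut-off in CE, where 0.598% of all expressed genes did (0.332% higher and 0.266% lower). In RUN 0 of the 10 passed, against 1.31% of expressed genes (0.362% higher and 0.952% lower). In H-RUN 0 of the 10 passed, against 0.827% (0.354% higher and 0.472% lower). In L-RUN, 3 of the 10 passed it, Slc1a2 and Slc1a3 being lower and Gjb6 higher, while 3.13% of all expressed genes passed it (2.33% lower and 0.797% higher). Gjb6 alone of the 3 passed after quantile normalization or against a baseline averaged over LD and CE, and 0 of them passed with a trend on transcript length removed. Quantile normalization keeps only ranks, so it cannot gauge the size of a difference for Slc1a2, near the top of the range. The share of all expressed genes past the cut-off was not computed under these settings. At a lower cut-off of 0.2, 2 of the 10 passed in CE (Slc1a2 and Fabp7, against 3.77% of expressed genes), 2 in H-RUN (3.31%), 2 in RUN (4.66%) and 3 in L-RUN (9.93%). These comparisons share the LD library. The median difference of the 10 genes from LD was -0.03 for H-RUN, -0.04 for L-RUN, -0.06 for CE and -0.07 for RUN, against medians between -0.0035 and -0.0013 over all expressed genes. Below LD were 8 of the 10 genes for H-RUN, 6 for L-RUN, 7 for CE and 8 for RUN. These counts go by sign alone. Within 1 technical SD of LD were 3 of the 10 genes for H-RUN, 3 for RUN, 1 for L-RUN and 1 for CE. The share of all expressed genes below LD was not computed. In such bulk tissue, fewer cells of a type and less RNA per cell cannot be told apart.

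**Figure D2:**
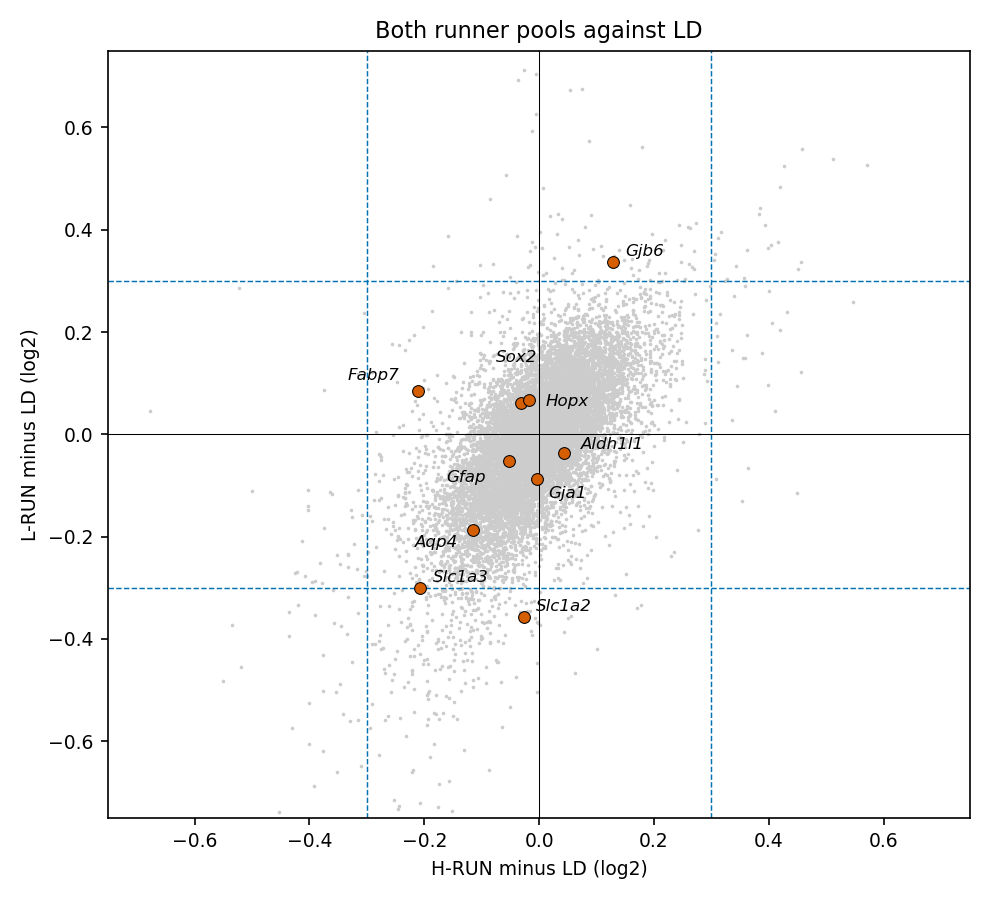
Difference from LD (log2) in H-RUN (x axis) and L-RUN (y axis) for the expressed genes (grey, 13 genes lie outside the axes) and the 10 genes (orange); dashed lines mark 0.3 in size. Gjb6 lies above the upper line for L-RUN, Slc1a2 and Slc1a3 lie at or below the lower line, and Fabp7 is above LD in L-RUN and below it in H-RUN.

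Among the 10 genes, the glutamate transporters held the largest decreases from LD in RUN and L-RUN, and Fabp7 held it in CE and H-RUN. For the 3 genes that passed the cut-off in L-RUN, the 250 bases before the start in a RefSeq promoter table (GRCm38.p6) are shown as candidate regulatory sequence of the members that differed. Slc1a2 is read from chr2:102706188-102706437 on the plus strand, Slc1a3 from chr15:8710808-8711057 on the minus strand and Gjb6 from chr14:57133612-57133861 on the minus strand. The Slc1a2 start in this table lies 47779 bases inside the gene as GENCODE annotates it, so its window precedes an internal start. The windows of Slc1a3 and Gjb6 lie at the ends of their genes. Capitals mark matches, on either strand, to sites of factors known from glial genes, TTCNNNGAA (STAT factors), TGGGAA (RBPJ, of the Notch pathway) and TTGGC (the core of NFI sites).
Slc1a2: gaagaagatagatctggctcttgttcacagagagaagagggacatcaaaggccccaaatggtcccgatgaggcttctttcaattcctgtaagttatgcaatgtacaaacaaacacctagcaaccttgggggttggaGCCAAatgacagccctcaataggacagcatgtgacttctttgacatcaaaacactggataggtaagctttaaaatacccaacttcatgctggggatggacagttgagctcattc
Slc1a3: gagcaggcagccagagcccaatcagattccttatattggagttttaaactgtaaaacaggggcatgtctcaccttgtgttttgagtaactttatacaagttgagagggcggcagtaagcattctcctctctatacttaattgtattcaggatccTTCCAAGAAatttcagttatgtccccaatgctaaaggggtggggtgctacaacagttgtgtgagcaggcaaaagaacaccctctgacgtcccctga
Gjb6: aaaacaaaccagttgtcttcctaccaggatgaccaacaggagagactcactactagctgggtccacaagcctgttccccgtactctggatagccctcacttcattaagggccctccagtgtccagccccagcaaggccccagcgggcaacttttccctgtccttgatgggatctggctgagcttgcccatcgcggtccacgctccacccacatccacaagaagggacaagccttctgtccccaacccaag
Slc1a2 held 1 match to the NFI core, Slc1a3 held 1 match to the STAT site, and Gjb6 held 0 matches. No matches overlapped. Of 32851 windows of 250 bases before starts in the same table, 41.5% held the NFI core, 21.6% the RBPJ site and 7.02% the STAT site. Among the 10 windows of 9 of the members, 4 held the NFI core, 3 the RBPJ site and 1 the STAT site. Besides that of Slc1a2, windows of Aldh1l1 (64366 bases), Hopx (19854) and Gfap (3712) precede starts inside the gene. Such matches describe the letters only.

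Slc1a2 (chromosome 2, 102658659 to 102790784, GRCm38) encodes GLT-1, the transporter that takes up most synaptic glutamate in the forebrain. Its value was 16.06 in LD, 16.03 in H-RUN, 15.88 in RUN, 15.86 in CE and 15.70 in L-RUN. LD and H-RUN thus stood together at the top, RUN and CE together below them, and L-RUN alone at the bottom. The neighbours LD and H-RUN, and RUN and CE, differed by less than 2 technical SDs, whereas the other gaps were near 7. The linear level of L-RUN differed from that of LD by -21.9%, a log2 difference of -0.36, and from that of H-RUN by -20.5% (-0.33). Among expressed genes, 202 were at least as low in L-RUN against LD. Slc1a2 has a longest transcript of 11595 bases, and the differences of all expressed genes from LD moved with transcript length. The Spearman correlation across 12765 genes was -0.51 for L-RUN, -0.49 for RUN, -0.37 for H-RUN and -0.33 for CE, a description over genes that share the libraries. Among the 1277 genes with transcripts of 6991 bases or more, 10.5% were lower past the cut-off in L-RUN. With the trend removed, the difference of Slc1a2 in L-RUN was -0.21, below the cut-off in size. An antisense RNA gene, Gm13872, overlaps its exons, as Gm15756 does those of Aldh1l1 and Hopxos those of Hopx. Whether counting used the strand is not given in the sources used here, so reads of these pairs cannot be told apart. Exons of Aldh1l1 also overlap Gm45901, a noncoding RNA gene on the same strand.

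**Figure D3:**
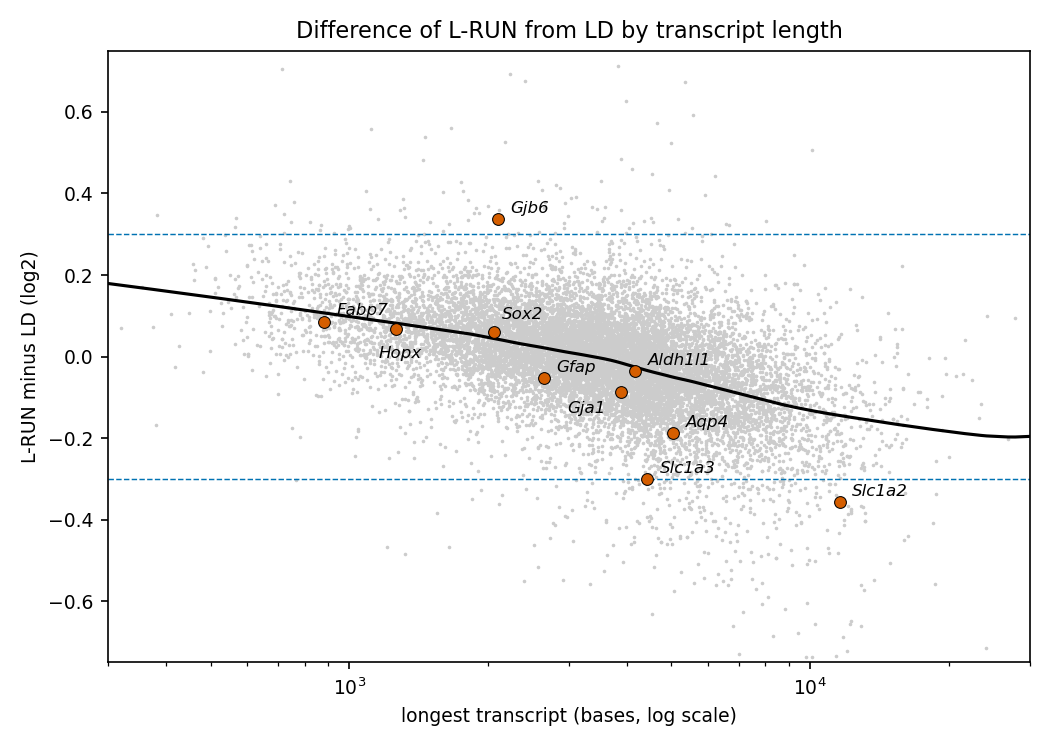
Difference of L-RUN from LD (log2, y axis) against the longest transcript (bases, log scale, x axis) for expressed genes (grey, 18 lie outside the axes), with the lowess trend (line) and the 10 genes (orange). The trend is -0.14 at the length of Slc1a2 and 0.11 at that of Fabp7, and Gjb6 lies above it while Slc1a3 lies below it.

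Slc1a3 (chromosome 15, 8634124 to 8710764) encodes GLAST, the glutamate transporter shared by astrocytes and radial glia. Its value was 13.71 in L-RUN, 13.77 in RUN, 13.81 in H-RUN, 13.89 in CE and 14.01 in LD. LD was the highest library by 5.8 technical SDs, and the 3 running libraries were the lowest. H-RUN and RUN differed from each other by less than 2 technical SDs. The difference from LD was -0.301 in L-RUN, -0.25 in RUN, -0.21 in H-RUN and -0.13 in CE. L-RUN passed the cut-off only just. With the length trend removed, it was -0.27 in L-RUN. Of 5 other transporters of the Slc1 family, 3 were expressed and 0 passed the cut-off in any group. Slc1a1, the neuronal glutamate transporter EAAC1, differed from LD by between -0.06 and -0.0046, and Slc1a4, a neutral amino acid transporter, by between -0.08 in L-RUN and 0.12 in CE. Slc1a6, a neuronal glutamate transporter, was above LD in every group, by 0.08 in H-RUN to 0.17 in CE. Glul, the enzyme that turns the glutamate taken up into glutamine, was 14.81 in LD and 14.64 to 14.77 in the other libraries, with differences of -0.17 for H-RUN, -0.15 for RUN, -0.13 for L-RUN and -0.05 for CE.

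Gjb6 was the member with the largest range, 0.37. Gjb6 (chromosome 14, 57123303 to 57133611) encodes Cx30 (connexin 30), a gap junction subunit of astrocytes. Its value was 10.10 in CE, 10.13 in LD, 10.25 in H-RUN, 10.35 in RUN and 10.46 in L-RUN. CE and LD differed by less than 1 technical SD, and the running libraries were each above both, with gaps of 2.57 to 3.55 technical SDs between neighbours. L-RUN exceeded LD by 26.3%, a log2 difference of 0.34, which was equalled or passed by 71 expressed genes, Gjb6 included. CE minus RUN was -0.25. With the length trend removed, Gjb6 in L-RUN was 0.29 above LD. Gja1 (chromosome 10, 56377330 to 56402513), which encodes Cx43, the main connexin of astrocytes, went the other way by a small amount. Its value was 12.42 in LD, 12.41 in H-RUN, 12.35 in CE and 12.33 in both RUN and L-RUN.

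Of the 14 other connexin genes listed, 7 were expressed, and 1 of them, Gjb2 (connexin 26), passed the cut-off. Gjb2 lies 18600 bases from Gjb6 on the same strand of chromosome 14. Its value was 7.09 in LD, 7.17 in H-RUN, 7.19 in CE, 7.44 in RUN and 7.77 in L-RUN, with differences from LD of 0.34 in RUN and 0.68 in L-RUN. Gjb2 is also made by leptomeningeal fibroblasts, the cells of the membranes around the brain. Of 20 markers of these cells, 19 were expressed, Foxc2 being below the minimum. In L-RUN 14 of them were higher past the cut-off, in RUN 11, in CE 4 and in H-RUN 0, with 2 lower in H-RUN. Of all expressed genes, 0.797% were higher in L-RUN, 0.362% in RUN, 0.332% in CE and 0.354% in H-RUN, with 0.472% lower in H-RUN. The marker list was chosen with earlier results of these data known, so its counts are a description and no test. Among the markers in L-RUN, the largest were Ptgds (1.97), Igf2 (1.096), Fmod (1.01), Slc13a4 (0.83) and Aldh1a2 (0.76). Mgp, Aebp1, Slc6a13, Gjb2, Col1a2, Slc22a6, Col3a1, Col1a1 and Slc47a1 lay between 0.35 and 0.71. In CE the 4 were Col1a2 (0.45), Col1a1 (0.39), Dcn (0.37) and Ptgds (0.30), and Ogn (-0.68) and Dcn (-0.52) were those lower in H-RUN. Their median difference was 0.67 in L-RUN, 0.35 in RUN, 0.09 in CE and -0.0060 in H-RUN. Their summed linear level was above that of LD by 159% in L-RUN, 78.2% in RUN and 16.9% in CE and below it by a change of -9.0% in H-RUN. This sum is weighted most by Ptgds, the most highly expressed marker, at 11.64 in LD, 12.98 in RUN and 13.61 in L-RUN. Gjb6 and the leptomeningeal markers both had their highest values in L-RUN. In H-RUN the difference from LD was 0.13 for Gjb6, with a marker median of -0.0060. In CE it was -0.03 for Gjb6, with a marker median of 0.09. The part of this tissue in the Gjb6 values was not tested.

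**Figure D4:**
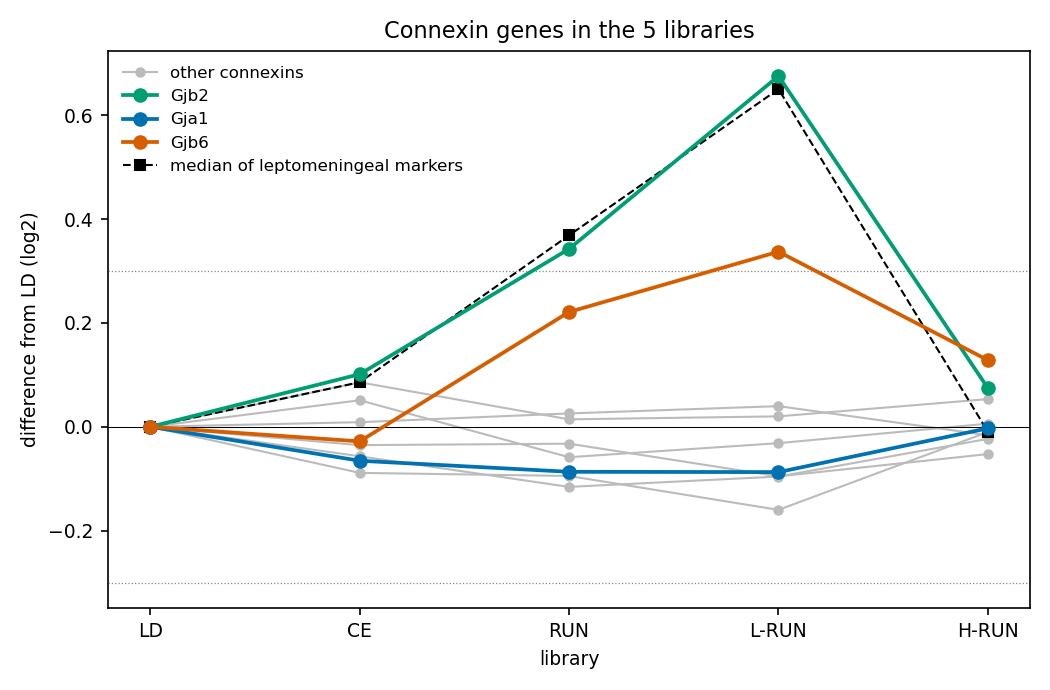
Difference from LD (log2, y axis) of the expressed connexin genes in the 5 libraries (x axis), with the median of 18 leptomeningeal markers other than Gjb2 (squares); lines only join the points of a gene. Gjb2 and the markers reach 0.68 and 0.65 in L-RUN and return to 0.07 and -0.0094 in H-RUN, Gjb6 reaches 0.34 and stays at 0.13, and Gja1 stays between -0.09 and 0.

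Over the 4 differences from LD, the 3 expressed genes nearest to Gjb6 by Euclidean distance were Slc22a8 (0.05), Bmp6 (0.06) and Suv420h2 (0.08), and 6 genes lay within 0.1. Slc22a8, for example, was at 0.36 in L-RUN and 0.09 in H-RUN. Nearest to Slc1a2 were Ttll7 (0.03), Slc24a2 (0.03) and Gm19757 (0.04), and 23 genes lay within 0.1.

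Gfap was the steadiest of the 10 genes. Gfap (chromosome 11, 102887336 to 102900912) encodes the intermediate filament that increases in reactive astrocytes. Its value was 13.28 in LD, 13.23 in both CE and L-RUN, 13.22 in H-RUN and 13.21 in RUN. The 4 enriched libraries lay within 0.02 of each other, less than the technical SD, and LD was 2.0 technical SDs above the nearest of them. Of 5 other filament and filament-binding genes of glia and progenitors, 4 were expressed. Synm (synemin), a partner of Gfap and vimentin in filaments, was lower than LD past the cut-off in 3 libraries, at -0.49 for L-RUN, -0.38 for RUN and -0.35 for H-RUN, and was at -0.24 in CE. Its value was 10.15 in L-RUN, 10.26 in RUN, 10.29 in H-RUN, 10.40 in CE and 10.64 in LD, and its longest transcript is 7818 bases. Vim (vimentin), which is made by radial glia, reactive astrocytes and fibroblasts, was at 9.45 in LD, 9.47 in H-RUN, 9.55 in CE, 9.61 in RUN and 9.77 in L-RUN. Its difference of 0.32 in L-RUN passed the cut-off. The leptomeningeal markers were highest in L-RUN too, and their part in it was not tested. Nes (nestin) differed from LD by between -0.18 and -0.09.

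Of 17 genes of reactive astrocytes, 12 were expressed, and Lcn2, Timp1, Cxcl10, Steap4 and C3 were not. In L-RUN 2 of the 12 passed the cut-off, both higher, Vim and Cp (ceruloplasmin, 0.33), and 0 did in the other 3 groups. Of all expressed genes, 3.13% passed it in L-RUN (0.797% higher). Cp was at -0.18 in H-RUN. The leptomeningeal markers were highest in L-RUN too, and their part in the Cp value was not tested. The median of the 12 genes was 0.07 for L-RUN, 0.03 for RUN, -0.04 for H-RUN and -0.05 for CE.

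Aqp4 (chromosome 18, 15389496 to 15410982) encodes the water channel of astrocyte endfeet. Its value was 12.02 in L-RUN, 12.04 in RUN, 12.09 in H-RUN, 12.11 in CE and 12.21 in LD. LD was the highest by 3.3 technical SDs, and the other neighbours were each within 2. The difference from LD ranged from -0.19 in L-RUN to -0.09 in CE. Of 9 genes of the dystrophin complex that holds Aqp4 at endfeet, all expressed, 0 passed the cut-off in any group. In each group 5 of the 9 were above LD, and over all groups they lay between -0.24 and 0.13. Of 10 other aquaporins, 2 were expressed and 0 passed the cut-off. Aldh1l1 (chromosome 6, 90486427 to 90600203), a folate enzyme used as a general astrocyte marker, was at 9.87 in L-RUN, 9.91 in LD, 9.93 in RUN, 9.95 in H-RUN and 9.99 in CE. Each neighbour in this order was within 2 technical SDs of the next. Of the 6 other Aldh1 enzymes, Aldh1a2, which makes retinoic acid in leptomeningeal cells and is among their markers, passed the cut-off in RUN (0.44) and L-RUN (0.76).

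Fabp7, Sox2 and Hopx were highest in CE or in L-RUN, and 0 of the 3 passed the cut-off against LD. Fabp7 (chromosome 10, 57784881 to 57788450) encodes brain lipid binding protein of radial glia. Its value was 10.68 in CE, 10.70 in H-RUN, 10.84 in RUN, 10.91 in LD and 10.997 in L-RUN. CE and H-RUN were together at the bottom, within 1 technical SD, and the other gaps were 2.2 to 4.7 technical SDs. The difference from LD was -0.24 in CE, -0.21 in H-RUN, -0.07 in RUN and 0.09 in L-RUN. L-RUN exceeded H-RUN by 22.8%, a log2 difference of 0.296, just under the cut-off. Fabp7 has the shortest transcript of the 10 genes, 880 bases. With the length trend removed, its difference was -0.28 in CE, -0.26 in H-RUN, -0.15 in RUN and -0.02 in L-RUN. Its relatives Fabp3 and Fabp5, the expressed genes of 8 others, differed from LD by at most 0.11.

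Sox2 (chromosome 3, 34650405 to 34652461), a transcription factor that keeps neural stem cells undifferentiated, was at 10.30 in CE, 10.22 in L-RUN, 10.16 in LD, 10.16 in RUN and 10.13 in H-RUN. CE was the highest, by 2.2 technical SDs over L-RUN, and exceeded LD by 0.14. Hopx (chromosome 5, 77086988 to 77115121), a homeodomain protein without DNA binding that marks quiescent stem cells, was at 10.71 in CE, 10.69 in L-RUN, 10.63 in LD, 10.63 in RUN and 10.61 in H-RUN. Sox2 and Hopx had the same order of libraries, and the neighbours in the order of Hopx were all within 2 technical SDs. Sox9, a glial transcription factor, was within 0.08 of LD, and of the 5 other SoxB1 and SoxE genes 0 passed the cut-off.

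Of 22 other radial glia and stem cell genes, 21 were expressed, Tfap2c being below the minimum. Vim in L-RUN was the only pass among them in the 4 comparisons with LD. Their median was 0.09 for CE, 0.05 for L-RUN, 0.0055 for RUN and -0.02 for H-RUN, with 16 of 21 above LD in CE, 11 in RUN and L-RUN each, and 9 in H-RUN. Of 30 other astrocyte genes, all expressed, 0 passed the cut-off in any of the 4 comparisons. Their median was -0.04 in L-RUN, -0.02 in RUN, -0.0020 in H-RUN and 0.07 in CE. In CE 23 of the 30 were above LD, while 3 of the 10 genes described here were. Such counts take in values close to LD, as Ndrg2 (0.02) among the 30 and Gjb6 (-0.03) among the 10. The share of all expressed genes above LD was not computed. Above LD were 14 of the 30 in H-RUN, 13 in RUN and 12 in L-RUN. Kcnj10, an inwardly rectifying potassium channel, lay between -0.19 in L-RUN and 0.13 in CE. S100b, a calcium-binding protein, lay between -0.13 (L-RUN) and 0.09 (H-RUN), and Aldoc, a glycolytic enzyme, between 0.02 in L-RUN and 0.07 in CE.

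**Figure D5:**
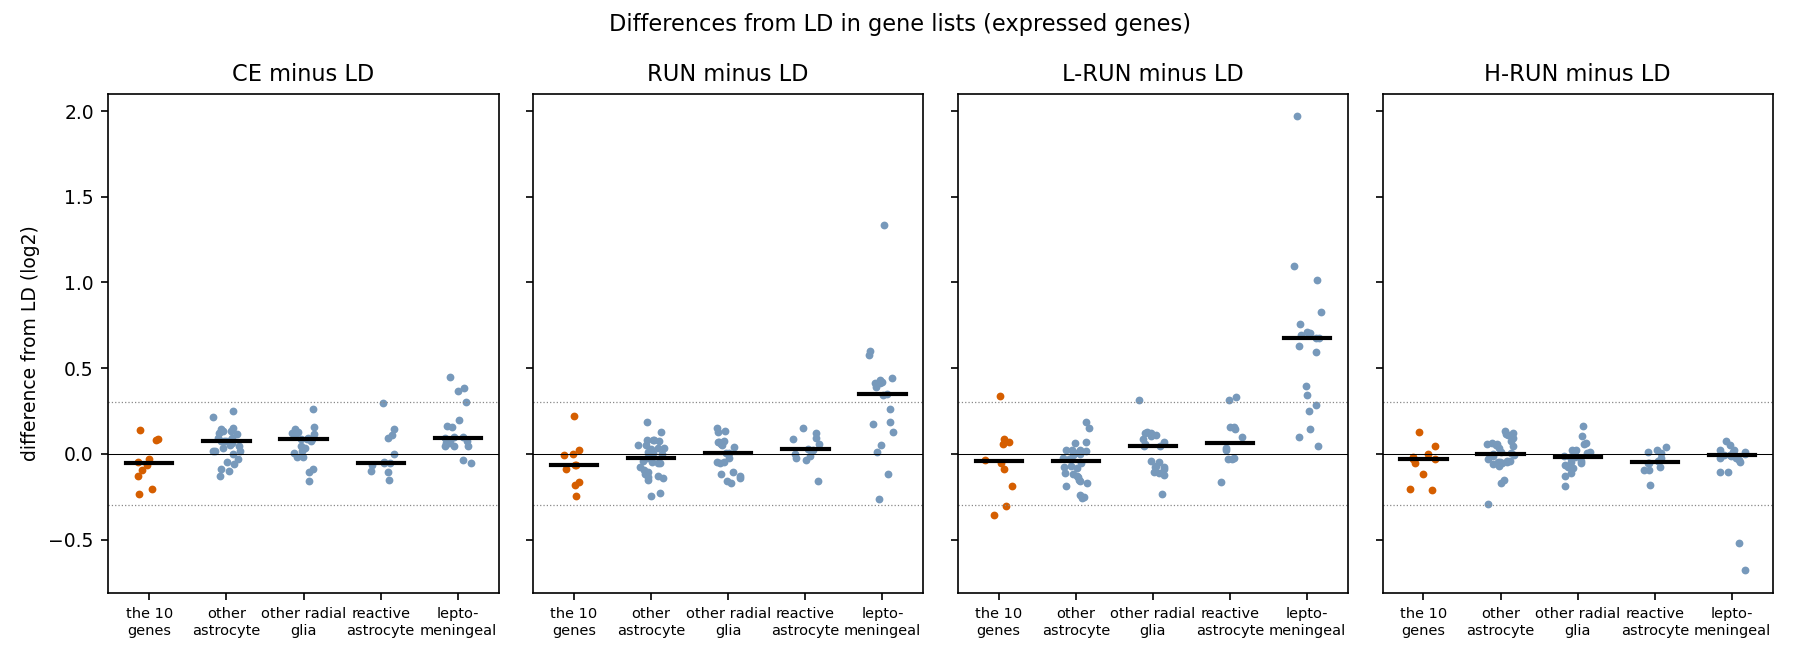
Differences from LD (log2, y axis) of the expressed genes of 5 lists (x axis) in the 4 comparisons; points are genes, black bars are medians, dotted lines mark 0.3 in size, and sideways scatter has no meaning. The 10 genes (orange) lie within 0.3 of LD except for 3 genes in L-RUN, and the leptomeningeal markers reach 1.97 in L-RUN.

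When the runner pools were compared directly, 1 of the 10 genes, Slc1a2, passed the cut-off, being lower, while 1.54% of all expressed genes did (0.561% higher and 0.974% lower). At a cut-off of 0.2, Gjb6 and Fabp7 passed as well, both higher in L-RUN, while 4.93% of all did. The pass of Slc1a2 at 0.3 was lost with the length trend removed (-0.26). It was also lost after quantile normalization (-0.26), which keeps only ranks and cannot gauge the size of a difference for this top-ranked gene. The median difference of L-RUN from H-RUN was -0.04 for the 10 genes. Gfap did not separate the pools, with a difference of 0.00064. In RUN, which held the RNA of both, 9 of the 10 genes lay between L-RUN and H-RUN, Gfap being the exception, against 58.3% of all expressed genes. A mixture lies between its parts wherever they differ beyond the technical spread, as 8 of the 10 did by more than 2 technical SDs. The count thus follows the size of that gap. The residuals of the 10 genes from the mixture lay between -0.04 for Gja1 and 0.02 for Aldh1l1. Between CE and RUN, 0 of the 10 genes passed the cut-off, against 0.834% of all expressed genes (0.539% higher and 0.295% lower), and 1 passed 0.2 (Gjb6, against 3.48%). The median difference of CE from RUN was 0.04, and the largest in size was the -0.25 of Gjb6, ahead of -0.17 for Fabp7 and 0.15 for Sox2. Of the 30 other astrocyte genes, 2 passed the cut-off here, Slc6a11 (0.38) and Mfge8 (0.36), both higher in CE. Of these 30 genes, 25 were higher in CE than in RUN and 5 lower, with a median of 0.07.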

How the data were processed

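RNA was extracted from the microdissected DG of each mouse, pooled by group and sequenced as polyA RNA (TruSeq). Per the methods and the submitters' processing notes, the authors processed the reads with CASAVA 1.8.2, trimmed adapters, mapped them to mm10 (TopHat2 2.0.10) and counted reads per RefSeq gene (HTSeq). All libraries were normalized together in DESeq2 1.10.1, and the authors deposited its regularized log values on the log2 scale. Shrinkage depends on the counts and understates changes of genes with few reads. Counts and depth were not given, so that no count model and no counting error could be used.

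Differences of deposited log2 values were taken between libraries and called at 0.3 in size, over 13550 genes with a mean of at least 5. The technical SD was computed from RUN minus log2 of the linear mean of L-RUN and H-RUN, by the median absolute deviation in 10 deciles of expression. The variance of this residual was taken as 1.5 times that of a library and that of a difference as 2 times. Positions and the longest transcripts came from GENCODE M21 (GRCm38, the build mm10), with a transcript for 94.2% of expressed genes, and its trend was removed by lowess (fraction 0.3). Promoters came from the RefSeq table of GRCm38.p6, and Aqp4 is not shown. The marker lists of oligodendrocytes, their precursors, microglia, vessels, granule neurons and choroid plexus were measured beside those of the report.

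Named were the 10 genes, genes of the lists past the cut-off, fixed relatives of the members (1 is not reported here), and the 3 genes nearest in pattern to each of the 2 members with the largest range. Slc1a6 and Fabp3, expressed genes of small lists, were chosen after their values were seen. The members and lists were chosen with earlier results of these data known. Alternatives were cut-offs of 0.2 and 0.4, median centring, quantile normalization, removal of the length trend, a baseline averaged over LD and CE, a minimum mean of 7 and a mixture of log values. The calculations were tested on simulated data. Tools were statsmodels 0.14.6 (lowess) and scipy 1.17.1 (correlation), with pandas 2.3.3 under python 3.11.15.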

Additional observations from a re-analysis of the deposited data

Results flagged for a closer look

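Fabp7 was above LD in L-RUN (0.09) and below it in H-RUN (-0.21), each by more than its technical SD of 0.031, which drew attention to the gene. The difference between the runner pools was 0.296 in log2. With the length trend removed, H-RUN was at -0.26 and L-RUN at -0.02, which is within 1 technical SD of LD. The difference between the pools was then 0.24. The difference rests on 1 library per pool and was not tested.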

How the results depend on the processing

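At a cut-off of 0.2, the number of the 10 genes that passed was 2 for H-RUN, 2 for CE and 2 for RUN against LD, 3 between L-RUN and H-RUN, and 1 between CE and RUN. At 0.4 it was 0 in L-RUN against LD and 0 between L-RUN and H-RUN. The 3 passes of L-RUN against LD became 1 after quantile normalization (Slc1a2 -0.26, Slc1a3 -0.24, Gjb6 kept), 1 with a baseline averaged over LD and CE (Gjb6 kept) and 0 with the length trend removed. Median centring left 2 of them and took Slc1a3 to -0.299. The pass of Slc1a2 between L-RUN and H-RUN was lost with the length trend removed (-0.26) and after quantile normalization (-0.26), where Fabp7 passed instead (0.31). Quantile normalization keeps only the rank of a gene in its library, and Slc1a2 lies near the top. It gave Slc1a2 the same -0.26 for CE and L-RUN against LD and for L-RUN against H-RUN, and 0 for H-RUN against LD. That setting thus cannot gauge the size of the Slc1a2 differences. Quantile normalization moved the median of the 10 genes between L-RUN and H-RUN to 0.0038. The cause of these shifts was not tested. The share of all expressed genes was not computed at 0.4 or with the altered centring, normalization, length trend or baseline. The counts under these settings thus cannot be set against such a share. Of values past the cut-off, 0 changed sign under these settings. Of all single values of the 10 genes, 2 of 60 changed sign with median centring, 3 of 60 with quantile normalization, 5 of 60 with the length trend removed and 6 of 30 with the averaged baseline. These include Slc1a2 in H-RUN (-0.03, to 0.04 without the length trend and 0.07 with the averaged baseline), Hopx in L-RUN (0.07, to -0.02 without the length trend) and Fabp7, which went from 0.09 to -0.02 in L-RUN without the length trend and from -0.07 to 0.05 in RUN with the averaged baseline. The residual SD of 0.0316 was within 1.5 times of itself for a mixture of log values and a minimum mean of 7. No paired analysis was possible because each group has 1 library, and for the same reason no library could be left out of a group.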

Other observations

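Other cell types of the DG were measured from their own marker lists. Of 10 oligodendrocyte markers, 0 passed the cut-off against LD in any group, with a median of 0.01 in H-RUN and -0.16 in L-RUN. Of 10 microglia markers, 0 passed it, with medians between -0.12 and -0.10 in the 4 groups, and of 7 markers of oligodendrocyte precursors 0 passed it, with a median of 0.12 in CE. Of 13 endothelial and mural markers, Flt1, a VEGF receptor, passed it at -0.31 in RUN and -0.43 in L-RUN. Of 10 granule neuron markers, C1ql2 passed it at 0.40 in H-RUN and 0.37 in both RUN and L-RUN, Plk5 at 0.36 and Prox1 at -0.41 in L-RUN. Of 11 choroid plexus and ependyma markers, 3 were expressed, and Ttr passed it at 0.62 in CE.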
